A study of Homo sapiens with 37 samples.

Results

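RNA near the helicase eIF4A was compared between heat-shocked and unstressed HEK293T cells, a human embryonic kidney line. The comparison covers 9 of the 37 libraries of the series, chosen by their labels: the streptavidin pulldowns at T20 against those at T0, a single T4 pulldown as an intermediate point, and the inputs at T20 and T0. All 9 libraries came from cells carrying APEX-eIF4A, the peroxidase APEX fused to eIF4A. The T20 group, labelled heat shock, had 2 pulldowns and 2 inputs, and T4, also labelled heat shock, had 1 pulldown. The T0 group, labelled naive, had 2 pulldowns and 2 inputs. The fits also drew on the T4 input and on hippuristanol and DMSO libraries of the same count table (the stress table). The sources used here give neither the temperature, nor the unit of T, nor how the fusion was expressed.

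APEX is a peroxidase that, given hydrogen peroxide, turns biotin-phenol into a short-lived radical that marks nearby molecules. Cells received 500 µM biotin-phenol for 30 min and 1 mM H2O2 for 1 min, and biotinylated RNA was then captured on streptavidin beads (the pulldown). The input is RNA that was not selected on the beads. eIF4A is the DEAD-box RNA helicase of the cap-binding complex eIF4F; it unwinds the 5′ leader of an mRNA so that the small ribosomal subunit can load and scan. Heat shock reduces translation initiation of most mRNAs in mammalian cells, gathers part of the untranslated mRNA and initiation factors into stress granules, and induces genes for chaperones through the transcription factor HSF1. The tables identify RNAs by versioned Ensembl ID (called IDs below) and do not pair them with gene names, and the gene table used here matched 0 of them. Chaperone and translation genes, the mRNA of eIF4A itself and markers of HEK293T or of other cell types could therefore not be looked up, and the identity of the cells was not checked.

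The T20, T4 and T0 pulldowns held 707356 to 1171918 counts, and the T20 and T0 inputs held 4540426 to 6721920. Between 13289 and 14148 IDs had a count in the T20 pulldowns, against 11574 to 12080 in the T0 pulldowns. Both T20 pulldowns were also deeper (906395 and 1171918 counts) than both T0 pulldowns (770084 and 707356), so depth differed along with the groups. Replicate pulldowns resembled each other less than replicate inputs: the correlation of log2 CPM (counts divided by the scaled library total, in parts per 1e6) was 0.730 between the T20 pulldowns and 0.660 between the T0 pulldowns over 3756 IDs, and 0.942 and 0.860 between the inputs of the same groups over 6091 IDs. T0 replicate 2 stood apart in both fractions. Its TMM factor, the scaling edgeR sets from the bulk of the IDs, was 0.647 in the pulldown, against 0.983 in T0 replicate 1, 1.02 at T4 and 1.16 and 1.09 at T20. The 10 most abundant pulldown IDs took 28.0% and 30.6% of the counts at T20, against 38.0% and 51.7% at T0. In the T4 pulldown they took 36.8% (Wilson 95% interval 36.6% to 36.9%, counting error only). In the T20 and T0 inputs the same 10 IDs held at most 0.0822% of counts, a gap that holds for these stress-table inputs and was not computed for the naive table.

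The first question was which RNAs differed in the eIF4A pulldowns at T20. Of 14839 IDs tested, 86 (0.58%) were called at an adjusted p under 0.05 (edgeR quasi-likelihood F test, Benjamini-Hochberg): 33 (0.222%) were higher and 53 (0.357%) lower at T20. The median log2 fold change over all tested IDs was 0.09, a small shift under this scaling. When libraries were scaled by their totals instead, that median became 0.55 and the split changed to 67 higher and 10 lower, among them 33 and 9 of the IDs called here. At an unadjusted p under 0.05, 1034 IDs passed (6.97%), 603 of them higher (4.06%) and 431 lower (2.9%). Fitted on the T20 and T0 pulldowns alone, edgeR called 0 IDs (815 at an unadjusted p under 0.05). With the replicate number as a block it called 72. The 86 calls use a spread estimated over all 9 stress-table pulldowns. Besides T20, T4 and T0, these include pulldowns with hippuristanol, an eIF4A inhibitor, and with DMSO. The single T4 library adds nothing to that spread.

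**Figure D1:**
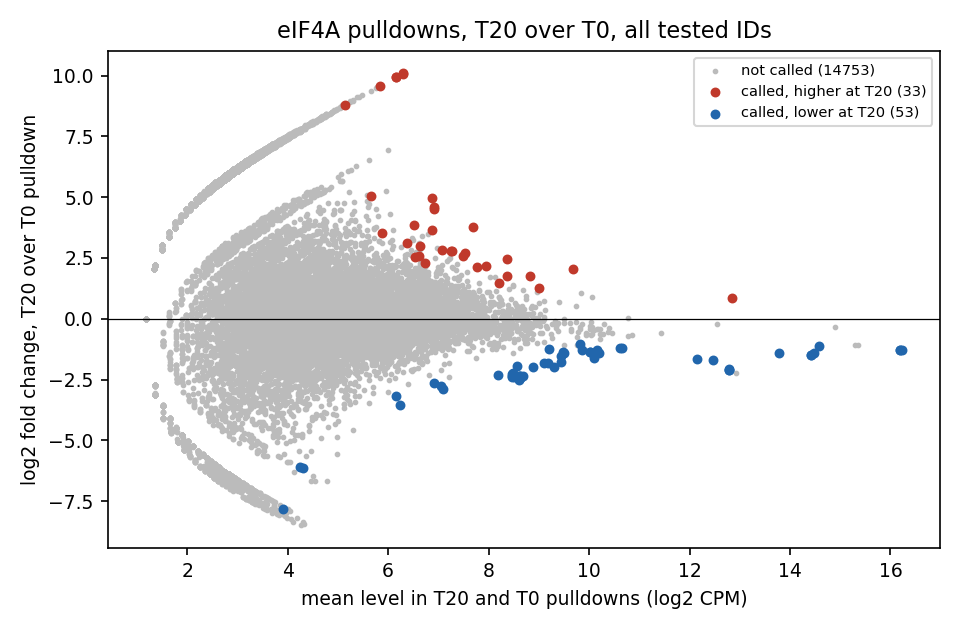
Each point is 1 of the 14839 tested IDs, with its mean level in the T20 and T0 pulldowns (log2 CPM) on the horizontal axis and its log2 fold change, T20 over T0, on the vertical axis. The 33 IDs called higher and 53 called lower lie mostly at high levels, while low IDs that were not called spread widely to both sides.

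The calls were concentrated among abundant RNAs. Of 5 equal classes of tested IDs by level, the highest (5.68 to 16.23 log2 CPM) held 31 of the 33 higher and 50 of the 53 lower IDs, and its median log2 fold change was 0.02. In that class replicates differed by a median of 0.52 log2 units at T20 and 0.66 at T0, and in the fourth class by 0.94 and 1.15. The T20 and T0 libraries did not overlap for 5079 of all tested IDs (34.2%), of which 2931 were higher (19.8%) and 2148 lower (14.5%). They did not overlap for 33 of the 33 IDs called higher and 44 of the 53 called lower, as the test that chose them favours.

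In each direction 2 IDs are described singly: the called ID with the smallest p and the one with the largest change. They were picked after their values were seen, among called IDs with non-overlapping libraries, a level of at least 5 log2 CPM and a count in all 4 libraries. Levels below are CPM after TMM scaling, and fold changes are edgeR's log2 values ± SE. The SE was taken as the absolute log2 value over the square root of F. It uses the spread of the whole fit, not of the compared libraries alone.

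ENSG00000245532.5, the higher ID with the smallest p, had 995 and 1619 CPM in the T20 pulldowns, against 428 and 200 CPM in the T0 pulldowns. Both T20 libraries lay above both T0 libraries, and the T4 library, at 277 CPM, lay inside the T0 range. The means were 1307 ± 441 CPM at T20 and 314 ± 161 CPM at T0 (SD, n = 2 each), and the log2 fold change was 2.05 ± 0.35 (edgeR adjusted p = 2.95e-06). Without T20 replicate 2 it was 1.66 and no longer called (edgeR adjusted p = 0.0521), and without T0 replicate 1 it was 2.71. In unselected RNA the same ID had 1801 and 2105 CPM in the T20 inputs, against 312 and 249 CPM in the T0 inputs. Its input log2 fold change of 2.80 ± 0.31 (edgeR adjusted p = 0.00107) exceeded the pulldown value. The input-adjusted difference, which is the pulldown change minus the input change, was -0.82 ± 0.48 (edgeR adjusted p = 0.713).

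ENSG00000110074.9 had the largest change among the higher IDs that met these conditions. It reached 114 and 58.5 CPM in the T20 pulldowns, against 2.66 and 2.20 CPM in the T0 pulldowns, and had 61.0 CPM at T4, inside the T20 range. The T0 values rest on 3 counts in all, against 193 at T20, and the ratio of the pooled counts was 33.6 (exact 95% interval 11.3 to 165, counting error only). The log2 fold change was 5.05 ± 1.02 (edgeR adjusted p = 0.000351). The inputs overlapped, with 66.9 and 45.9 CPM at T20 and 36.2 and 61.7 CPM at T0, and their log2 fold change was 0.21 ± 0.35 (edgeR adjusted p = 0.810). This ID therefore differed in the pulldowns with no called difference in unselected RNA. Its input-adjusted difference, 4.83 ± 1.14, was still not called by edgeR (adjusted p = 0.676), whereas DESeq2 gave 4.74 with an adjusted p of 0.0344.

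ENSG00000278189.1, the lower ID with the smallest p, was an abundant pulldown RNA. It had 2775 and 2576 CPM in the T20 pulldowns, against 5551 and 17279 CPM in the T0 pulldowns, and 3827 CPM at T4. Both T20 libraries lay below both T0 libraries, and the T0 libraries differed from each other more than T0 replicate 1 differed from T20. The means were 2675 ± 141 CPM at T20 and 11415 ± 8293 CPM at T0 (SD, n = 2 each), with a log2 fold change of -2.09 ± 0.23 (edgeR adjusted p = 1.76e-12). Fitted on the T20 and T0 pulldowns alone, the log2 fold change was -2.10 and not called (edgeR adjusted p = 0.467). With limma voom it was -1.26 and not called (limma adjusted p = 0.343). The value was -1.05 without T0 replicate 2 and -2.69 without T0 replicate 1, still called both times. In inputs it had 22.4 and 16.7 CPM at T20 and 21.6 and 50.6 CPM at T0, so its level in the pulldowns was far above that in the stress-table inputs at both times. In the naive table its pulldown level was instead below its input level, by a difference of -0.86 log2 CPM. The input log2 fold change was -0.87 ± 0.44 (edgeR adjusted p = 0.381) and the input-adjusted difference -1.28 ± 0.55 (edgeR adjusted p = 0.676). It is 1 of 3 IDs with near-identical counts, 2898 to 2911 and 3260 to 3297 in the T20 pulldowns and 4168 to 4178 and 7839 to 7882 in the T0 pulldowns. These 3 IDs may share reads, and how reads matching several IDs were counted is not given in the sources used here.

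ENSG00000148834.11 had the largest change among the lower IDs that met the conditions. It had 11.5 and 12.6 CPM in the T20 pulldowns, against 209.9 and 72.5 CPM in the T0 pulldowns, and 71.6 CPM at T4. The groups did not overlap, and the T4 value was close to the lower T0 library. The log2 fold change was -3.54 ± 0.97 (edgeR adjusted p = 0.0485); it was not called without T20 replicate 1, T20 replicate 2 or T0 replicate 1 (-3.45, -3.61 and -2.58). In inputs this ID had 67.8 and 78.9 CPM at T20, against 99.6 and 96.7 CPM at T0, a log2 fold change of -0.42 ± 0.29 (edgeR adjusted p = 0.524). The input-adjusted difference of -3.21 ± 0.90 was not called by edgeR (adjusted p = 0.676), and DESeq2 gave -3.33 with an adjusted p of 0.0265.

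**Figure D2:**
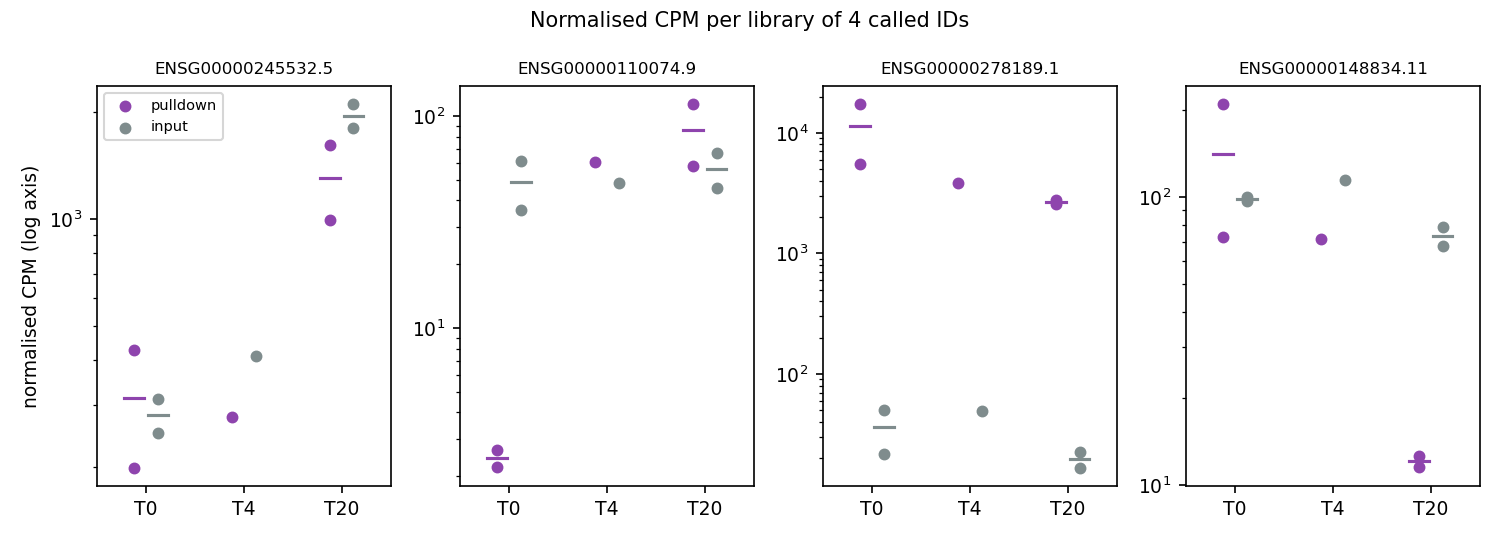
Normalised CPM on a log axis for the 4 IDs described, with pulldowns in purple and inputs in grey; each point is 1 library and short lines are means of 2. ENSG00000245532.5 is higher at T20 in both fractions, while ENSG00000110074.9 and ENSG00000148834.11 differ between T20 and T0 mainly in the pulldowns.

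The 33 IDs called higher showed a broad range of sizes. Their log2 fold changes had a median of 2.82, and 6 of them had 0 counts in both T0 pulldowns. Set against a floor of 3 counts per T0 library, those 6 were higher by at least 3.44 to 4.75 log2 units, and with them at that bound the whole set ran over 0.86 to 5.05, again with a median of 2.82. The set took 2.03% and 2.16% of pulldown counts at T20, against 0.750% and 0.413% at T0. No 2 of the 33 had near-identical counts across the 17 stress-table libraries, so each was a separate count pattern. At T0, 29 of the 33 had a lower level in the pulldown than in the input (median difference -1.12 log2 CPM), as had 71.7% of all tested IDs (median -0.67). At T20, 30 of the 33 had a higher level in the pulldown (median difference 1.12), against 35.7% of all tested IDs. Pulldowns and inputs were scaled apart, so these differences are read only beside those of all tested IDs. The T20 and T0 pulldowns both entered the choice of these IDs, so the T0 and T20 values describe them and are no further evidence.

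The 53 IDs called lower were more abundant, with a median level of 9.29 log2 CPM against 6.91 for those called higher. Their log2 fold changes had a median of -1.93 and, with the 1 ID that had 0 counts in both T20 pulldowns at its bound, ran over -6.14 to -1.05. The ID at -6.14 had 0.958 and 0 CPM at T20, against 51.8 and 28.5 CPM at T0. The next, at -6.07, also had 0.958 and 0 CPM at T20, so this end of the range lies near the floor. The 53 IDs took 23.3% and 24.6% of pulldown counts at T20, against 33.4% and 49.4% at T0. Among them 22 IDs fell into 5 groups of near-identical counts (within 20% plus 10 counts in each library), the largest with 11 IDs, so the 53 IDs give 36 distinct count patterns. The most abundant, ENSG00000275209.1, belonged to such a group. It had 42043 and 48013 CPM at T20, against 70398 and 146663 CPM at T0. A few abundant IDs with near-identical counts thus carry much of the share.

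A single library moved with the lower set. In 44 of the 53 IDs T0 replicate 2 was over 2 times T0 replicate 1, with a median log2 ratio of 1.64, while the median between the T20 replicates was 0.12. Both T20 libraries were also below T0 replicate 1 in 44 of the 53. Without T0 replicate 2, edgeR called 23 IDs higher and 18 lower, of which 13 and 17 were among the 33 and the 53. The summed share of this set also differed between the T0 inputs. The 53 IDs held 13.7% and 9.41% of input counts at T20, against 8.64% and 25.6% at T0, with the highest share in replicate 2. A summed share does not show that the same IDs diverged in both fractions. Over 3756 IDs, the replicate differences of the T0 pulldowns and of the T0 inputs correlated at 0.10. The part of this library in the lower calls beyond these values was not tested.

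Leaving out other libraries moved the count as well. Without T20 replicate 1 there were 38 calls (13 higher, 25 lower), without T20 replicate 2 there were 48 (8 higher, 40 lower), and without T0 replicate 1 there were 123 (51 higher, 72 lower). DESeq2 called 250 IDs (161 higher, 89 lower), including 28 of the 33 and 35 of the 53, and limma voom called 11, all lower.

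The single T4 pulldown gave an intermediate time without a test. Over the 33 higher IDs the median level was 4.77 and 4.30 log2 CPM at T0, 5.87 at T4 and 7.63 and 7.83 at T20. T4 lay between the T0 and T20 libraries for 17 of these IDs, inside the T0 range for 8, inside the T20 range for 2 and below both groups for 6. It was nearer the T20 mean for 14 of the 33. The higher IDs as a set were thus mostly between the groups or at T0 levels in this library, and their share of its counts, 0.714% (Wilson 95% interval 0.696% to 0.732%), was below that of T0 replicate 1 and above that of T0 replicate 2.

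The lower IDs had a different order. Their median level was 8.69 and 10.40 log2 CPM at T0, 7.84 at T4 and 8.26 and 8.37 at T20, so T4 was the lowest of the 5 libraries. T4 lay between the groups for 26 of the 53, below both T20 libraries for 15, inside the T20 range for 6, inside the T0 range for 4 and above both T0 libraries for 2. It was nearer the T20 mean for 46 of the 53. Their share of T4 counts, 30.5% (Wilson 95% interval 30.4% to 30.6%), was nonetheless between those of T20 and T0. That share depends mainly on the most abundant IDs, unlike the median. Over all 3756 IDs compared, the T4 pulldown correlated with the T0 pulldowns at 0.659 and 0.646 and with the T20 pulldowns at 0.571 and 0.586.

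**Figure D3:**
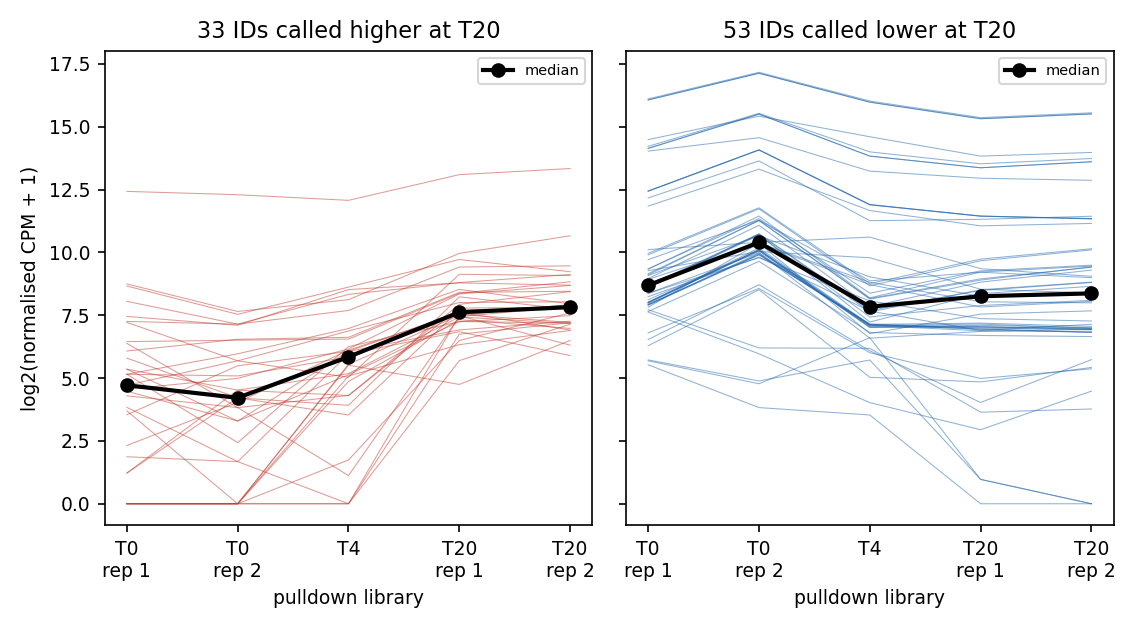
Log2(normalised CPM + 1) in each of the 5 pulldown libraries, one thin line per ID, with the 33 IDs called higher on the left, the 53 called lower on the right and black medians. The higher IDs reach their top level at T20, and T0 replicate 2 stands above T0 replicate 1 for most of the lower IDs.

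Whether the unselected RNA also differed at T20 was tested in the inputs. In these bulk samples a change in the number of cells with an RNA and a change in its amount per cell cannot be told apart. Of 20438 IDs tested in inputs, 167 (0.817%) were called by edgeR, 165 higher (0.807%) and 2 lower (0.00979%) at T20. The count and its split moved with each input left out: 55 and 24 IDs were called without T20 replicates 1 and 2, all higher. Without T0 replicate 1 there were 709 higher and 287 lower, without T0 replicate 2 there were 335 higher and 58 lower, and with all 17 libraries 3 higher and 4 lower.

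The RNAs that were higher in the T20 inputs were mostly higher in the T20 pulldowns as well. The T20 and T0 pulldowns had no counterpart with APEX not fused to eIF4A, so a pulldown level is not by itself a measure of proximity. With no filter on the pulldown counts, 147 of the 165 (89.1%) had a higher mean in the T20 pulldowns than in the T0 pulldowns, 5 (3.03%) had a lower one and 13 had no counts in either. Over all 20438 IDs tested in inputs, 44.2% were above and 36.6% below. Both T20 pulldowns lay above both T0 pulldowns for 105 of the 165 (63.6%), against 15.4% of all IDs. Together the 165 IDs held 7381 and 9067 CPM in the T20 pulldowns, against 1414 and 966 CPM in the T0 pulldowns, with 1520 CPM at T4. In inputs they held 8474 and 8918 CPM at T20, against 1474 and 1480 CPM at T0, with 2028 CPM at T4. The inputs chose these IDs, so their input sums had to differ and are given as a description. The pulldown sums, which did not enter the choice, did not overlap between T20 and T0, although a 2-sided exact permutation test of 2 against 2 libraries cannot go below p = 0.333. ENSG00000245532.5 was the most abundant of the 165, and without it the pulldown sums were 6386 and 7448 CPM at T20, against 986 and 766 CPM at T0.

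Most of the 165 had no counts in the T0 pulldowns. At T0, 95 of the 165 had 0 counts in both pulldowns, against 6850 of all 20438 IDs tested in inputs. T0 pulldown counts had a median of 0 over the 165 and of 7 over all IDs, so the set was more often at 0. A count was found for 49 and 50 of the 165 in T0 replicates 1 and 2, for 54 at T4 and for 135 and 132 at T20. Absence from the pulldown and a level too low for this depth cannot be told apart for IDs without counts. The share with a higher pulldown mean depended on which IDs the inputs called. It was 65.0% for the 709 IDs called higher without T0 input replicate 1 and lay between that and 100% (3 IDs, in the fit of all 17 libraries) elsewhere.

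**Figure D4:**
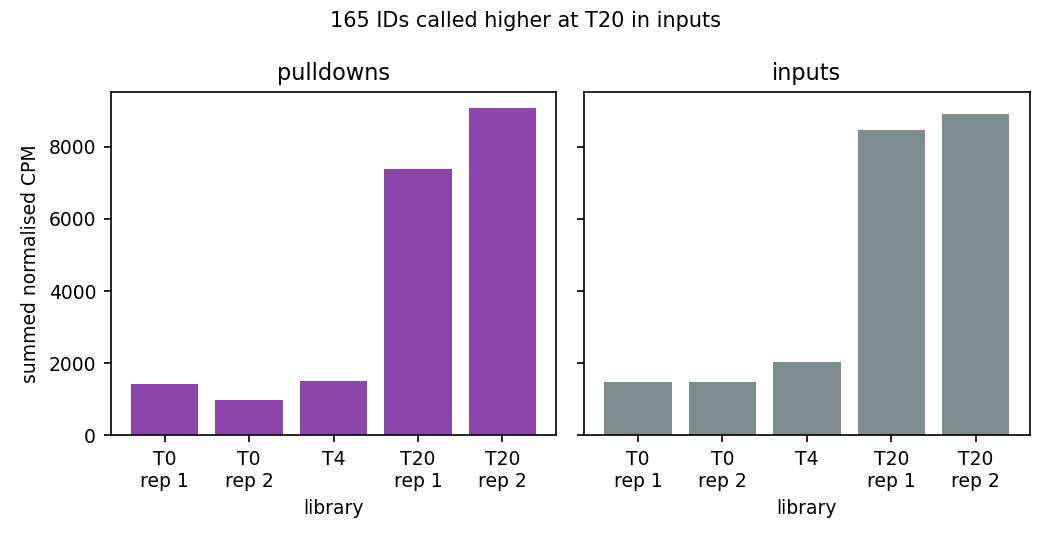
Summed normalised CPM of the 165 IDs called higher at T20 in inputs, by library, with pulldowns on the left and inputs on the right; bars start at 0. The T20 pulldowns reach 7381 and 9067 CPM, and the T0 and T4 pulldowns stay between 966 and 1520 CPM.

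The pulldown calls were set beside their own input changes. Among the 33 higher IDs, 32 (97.0%) had an input log2 fold change above 0, with a median of 0.72 and a range of -0.22 to 3.93, whereas 40.5% of the 14312 IDs tested in both fractions were above 0. The inputs called 7 of the 33 higher, which is 21.2% of the higher pulldown IDs and 4.24% of the 165, beside 0.807% of all IDs tested in inputs. For 13 of the 33 the input value was within 0.5 of 0. Over all IDs tested in both fractions the quartiles of the input value were -0.44 and 0.31, so a value that near 0 was common and does not set these IDs apart. Among the 53 lower IDs, all 53 had an input value below 0 (median -0.79), against 59.5% of all, and for 10 the value was within 0.5 of 0. These 53 give 36 distinct count patterns. In the highest level class, which held 50 of them, the median input value was -0.30. Without T0 input replicate 2, ENSG00000278189.1 went from -0.87 to -0.15 and ENSG00000148834.11 from -0.42 to -0.44. This was not computed for the whole set. The inputs called 0 of the 53, with only 0.00979% of all IDs called lower there. Across IDs the pulldown and input changes had a Spearman correlation of 0.282 over 14312 IDs and 0.533 over the 1075 with a mean of at least 100 counts, given without a test because IDs are not independent replicates.

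**Figure D5:**
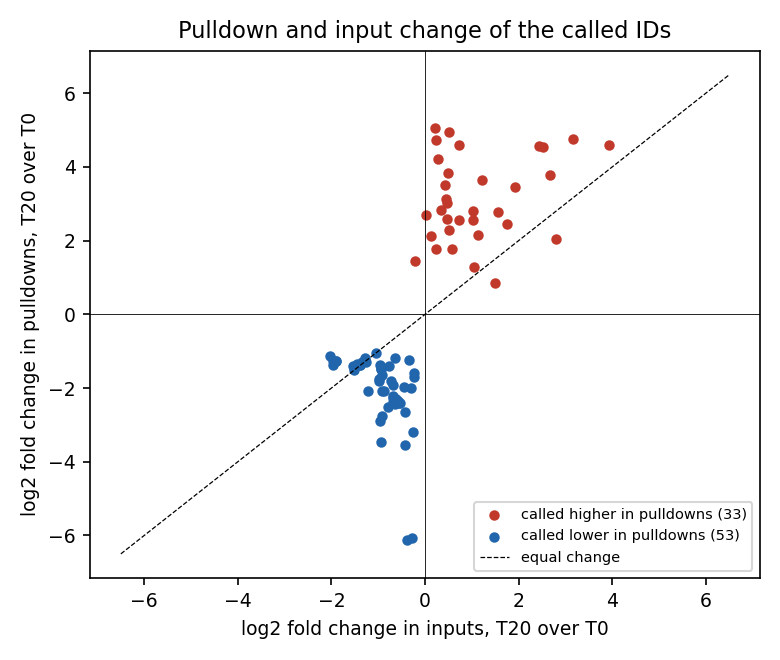
Log2 fold change, T20 over T0, in pulldowns against inputs for the 33 IDs called higher and the 53 called lower, with IDs without counts in a group drawn at their bound; the dashed line marks equal change. Nearly all called IDs have the same sign in both fractions, and most lie farther from 0 in the pulldowns. The IDs were chosen by their pulldown changes, which favours larger values there.

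Subtracting the input change left no ID called. The input-adjusted test called 0 of 16678 IDs (0%) with edgeR, with a smallest adjusted p of 0.452. At an unadjusted p under 0.05, 1226 passed (7.35%), 630 of them higher (3.78%) and 596 lower (3.57%). DESeq2 called 82 (37 higher, 45 lower). The adjusted values kept the sign of the pulldown change for 31 of the 33 higher IDs, with a median of 2.02, and for 45 of the 53 lower IDs, with a median of -1.28. These values share the pulldowns that chose the IDs and are given as a description; the absence of edgeR calls does not show that the adjusted differences were 0. The edgeR spread, as the common biological coefficient of variation, was 0.670 in the joint model, 0.998 in the pulldowns and 0.308 in the inputs.

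Libraries of the series other than T20, T4 and T0 gave further values for the called RNAs. The hippuristanol inputs carry a heat shock label, so the hippuristanol libraries are not taken to be free of heat shock. Hippuristanol, an inhibitor of eIF4A that blocks its binding to RNA, was compared with DMSO in APEX-eIF4A pulldowns, which share no library with T20 and T0 but share the fit. That comparison called 9 IDs (0.0607%), all higher with hippuristanol. Of the 33 IDs higher at T20, 21 were above 0 with hippuristanol (median log2 fold change 0.24) and 0 were called, and of the 53 lower at T20, 44 were above 0 (median 0.40) and 4 were called higher. Over all tested IDs 50.1% were above 0, with a median of 0.0048. The 4 called IDs hold 3 distinct count patterns, and for 3 of the 4 the T20 and T0 pulldowns overlapped. ENSG00000245532.5 had a hippuristanol value of 0.68 ± 0.34 and ENSG00000278189.1 one of 0.34 ± 0.22, neither called. Across IDs the T20 and hippuristanol changes had a Spearman correlation of 0.042, over 14839 IDs.

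Unstressed cells from the other count table gave a level of each RNA in the eIF4A pulldown relative to its input. Of the 33 higher IDs, 30 could be compared and 24 were higher in the naive APEX-eIF4A pulldowns than in the naive inputs (median difference 0.42 log2 CPM). Of the 53 lower IDs, 50 could be compared and 47 were lower in the naive pulldowns than in the naive inputs (median -2.18). Over the 10700 IDs compared, 51.1% were higher in the pulldown, with a median of 0.01. The T0 libraries of the stress table, also from unstressed cells, ran the other way for both sets. There 29 of the 33 higher IDs were below input, as given above, and 32 of the 53 lower IDs were above it (median 0.74). Over all tested IDs 28.3% were above input at T0 (median -0.67). The stress-table pulldowns and inputs were scaled apart from each other, whereas the naive pulldowns and inputs were scaled together. The T0 and naive differences from input are therefore not on a common scale, and each is read beside its own value over all IDs. The T0 pulldowns entered the choice of both sets, so their T0 values are given as a description. The tables were scaled separately, and why they differ was not tested.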

How the data were processed

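The authors deposited raw whole-number counts per versioned Ensembl ID, 60483 of them per table. The submitters' processing notes name cutadapt, HISAT2, featureCounts and GRCh38; the sources used here do not give their versions, the use of strand or the handling of multiply matching reads. Groups and replicate numbers came from sample titles. Nothing in the labels ties replicates to separate cultures, and p-values then reflect only library-to-library spread, possibly technical. No molecular identifiers are named in the labels.

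Counts were tested with edgeR 4.0.16 in R 4.3.3 (filterByExpr, TMM, estimateDisp, robust glmQLFit, 2-sided F test, Benjamini-Hochberg over all tested IDs). Pulldown changes were fitted over the 9 stress-table pulldowns, input changes over its 8 inputs, and input-adjusted differences over all 17 libraries. Both fractions of that table hold T20, T4, T0, hippuristanol and DMSO libraries. Log2 CPM used a prior count of 2. An ID is called at an adjusted p under 0.05. Alternatives were DESeq2 1.42.0, limma 3.58.1, other scalings and filters, and each library left out. Hippuristanol inputs, grouped by title, carry a heat shock label. One input column name occurs in both tables and was read as naive eIF4A in one and as DMSO in the other. Same-numbered libraries were checked for pairing: their deviations correlated at 0.04 for the T20 and T0 pulldowns and at -0.69 for the inputs, so the numbers were not taken to pair them.

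The libraries compared and the lists were chosen with earlier results of these data known. The 29 gene lists, the marker check, the rule for named genes and the promoter search need gene symbols and were not applied.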

Additional observations from a re-analysis of the deposited data

How the results depend on the processing

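For pulldowns (86 calls), edgeR gave 77 with library size, 62 without a count filter, 91 with the 10 most abundant IDs left out of the scaling, 72 (49 higher, 23 lower) with a replicate block, 24 with all 17 libraries, 1 with at least 10 counts in every library and 0 on the libraries compared alone; DESeq2 gave 250, limma voom 11, and leaving out 1 library 38 to 123. For inputs (167 calls), edgeR gave 52 with library size, 552 without a filter, 35 with at least 10 counts, 379 on the libraries compared alone, 329 with a replicate block, 2069 with the numbers crossed (chosen after seeing the data) and 7 with all 17 libraries; DESeq2 gave 384, and leaving out 1 library 24 to 996. Input-adjusted calls were 0 in the other settings run, the replicate block included, but 82 with DESeq2 and 1 without a count filter. The input log2 fold change of ENSG00000110074.9 turned to -0.0847 without T20 input replicate 1 and -0.0882 without T0 input replicate 1, and leaving out 1 input gave -0.0882 to 0.64. The 4 named IDs kept their pulldown direction in every setting run; ENSG00000245532.5 lost its call in 4 of 13 settings (edgeR, DESeq2 or limma adjusted p up to 0.467), ENSG00000110074.9 in 2 of 12, ENSG00000278189.1 in 4 of 13 and ENSG00000148834.11 in 8 of 13. The share of input-called IDs with a higher T20 pulldown mean was 65.0% to 100%. The cause of these shifts was not tested. Of the pulldown calls, 31 of 33 higher and 50 of 53 lower lay in the highest of 5 level classes, and each group had 2 libraries.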
